A study of Homo sapiens with 3 samples.

Results

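The genes described here encode proteins that recognise, mark and remove introns: the serine/arginine-rich (SR) splicing factors, the heterogeneous nuclear ribonucleoproteins (hnRNPs), the proteins of the small nuclear ribonucleoproteins (snRNPs) with SNRP symbols, and the SF3A and SF3B subunits of the U2 snRNP. They were chosen by symbol alone (SRSF, HNRNP, SNRP, SF3A and SF3B followed by the member's letters or number), which gave 58 of the 21572 rows of the gene table: 12 SR, 24 hnRNP, 13 snRNP and 9 SF3 rows. The 3 libraries sequenced came from Hep-G2, a widely used cell line of human hepatoma origin. One library carried a control short hairpin RNA (shRNA), which the design text calls a scramble, and the others each carried a different shRNA against FTO, labelled sh_#2 and sh_#7 and here called sh#2 and sh#7. All 3 cultures were at passage 21 and were grown in the same medium, and the sources used here give neither the vector nor whether a line was a clone or a pool. FTO is a demethylase of N6-methyladenosine (m6A) in RNA, and per the design text its knockdown was less efficient in sh#2 than in sh#7. With 1 library in each group, the differences have no replicate check and no p-value, and both knockdown comparisons share the same control library. In such bulk libraries fewer cells with a transcript and less transcript per cell cannot be told apart.

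Splicing is carried out by the spliceosome, in which the U1 snRNP binds the 5′ splice site and the U2 snRNP the branch point. The Sm proteins form a ring around the U1, U2, U4 and U5 small nuclear RNAs, and SF3A and SF3B help the U2 snRNP to hold the branch point. SR proteins mostly bind exonic enhancers and favour inclusion of the exon, whereas many hnRNPs bind silencers and favour skipping, and most of these genes are abundantly expressed in dividing cells. Several of them have been linked to m6A in the literature, among them HNRNPC, HNRNPA2B1, SRSF2, SRSF3 and SRSF10.

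FTO itself stood at 9.02 FPKM in control cells, 5.29 in sh#2 and 2.55 in sh#7. FPKM counts fragments per kilobase of a gene's transcript relative to all mapped fragments, so levels of different genes can be set side by side per length. On the log2(FPKM + 1) scale, used for every difference below, the difference of FTO from the control was -0.67 in sh#2 and -1.498 in sh#7, in the order the design text gives. Depth was similar in the 3 libraries, at an estimated 42.7 M to 44.3 M fragments (M for mega), while the share of FPKM taken by the 100 most abundant genes was 34.7%, 31.3% and 28.98%, in the order control, sh#2, sh#7. All 10 liver cell markers listed were expressed, and 9 of them were past 1.5-fold lower in sh#7 and 4 in sh#2, their summed FPKM being 24947 in control cells, 17925 in sh#2 and 10371 in sh#7. None of 4 endothelial markers reached a mean of 1 FPKM, and the fibroblast genes COL1A2, COL3A1, DCN and LUM and the blood genes PTPRC, CD3E and HBB were listed at 0. The summed level of the 7 blood and immune markers was 3258, 1354 and 322 FPKM in the same order, nearly all of it from LYZ (3216, 1321 and 297 FPKM), and that of the 7 fibroblast markers was 43.9, 35.4 and 52.7 FPKM. ACTA2 made up nearly all of the fibroblast sum (40.2, 33.6 and 51.5 FPKM), whereas PDGFRB stood at 3.76, 1.69 and 0.616 FPKM. LYZ and the summed liver markers were lowest in sh#7 and intermediate in sh#2, although ALB, APOA1, APOB and FGB were not lower in sh#2 than in the control. The part of these levels in the results below was not tested.

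A gene was compared where its mean over the libraries reached 1 FPKM, which kept 11069 genes and 53 of the 58 members (11 SR, 21 hnRNP, 12 snRNP and 9 SF3). The median gene was higher by 0.16 in sh#7 and by 0.10 in sh#2 than in the control, and by 0.05 in sh#7 than in sh#2, and values "relative to the median gene" have this subtracted. Rescaling the libraries by median-of-ratios factors moved that median by -0.15 for sh#7 and by -0.10 for sh#2, and moved abundant genes slightly further, so a small positive difference can change sign with the scaling. Of the 53 members, 5 were past 1.5-fold higher in sh#7 than in the control, which is 9.43% of them beside 9.61% of all compared genes, and 1 was past 1.5-fold lower, 1.89% beside 6.18%. That split rests on the scaling, since among all genes the 1064 higher and 684 lower became 580 higher and 999 lower with median-of-ratios factors, and the members' 5 and 1 became 2 and 2. In sh#2, 1 member was past 1.5-fold higher (1.89% beside 2.67% of all genes) and none was past 1.5-fold lower (2.72% of all genes). Between the lines, none was past 1.5-fold higher in sh#7 than in sh#2 (5.14% of all genes) and 1 was past 1.5-fold lower (4.55%). No member reached 2-fold in any of the 3 comparisons, beside 2.35% of all genes higher and 2.48% lower for sh#7, 0.506% and 0.723% for sh#2, and 1.45% and 1.52% for the 2 lines against each other. The share of members past the threshold in sh#7 was thus close to that of all genes in the higher direction and below it in the lower one, and the families differed among themselves.

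**Figure D1:**
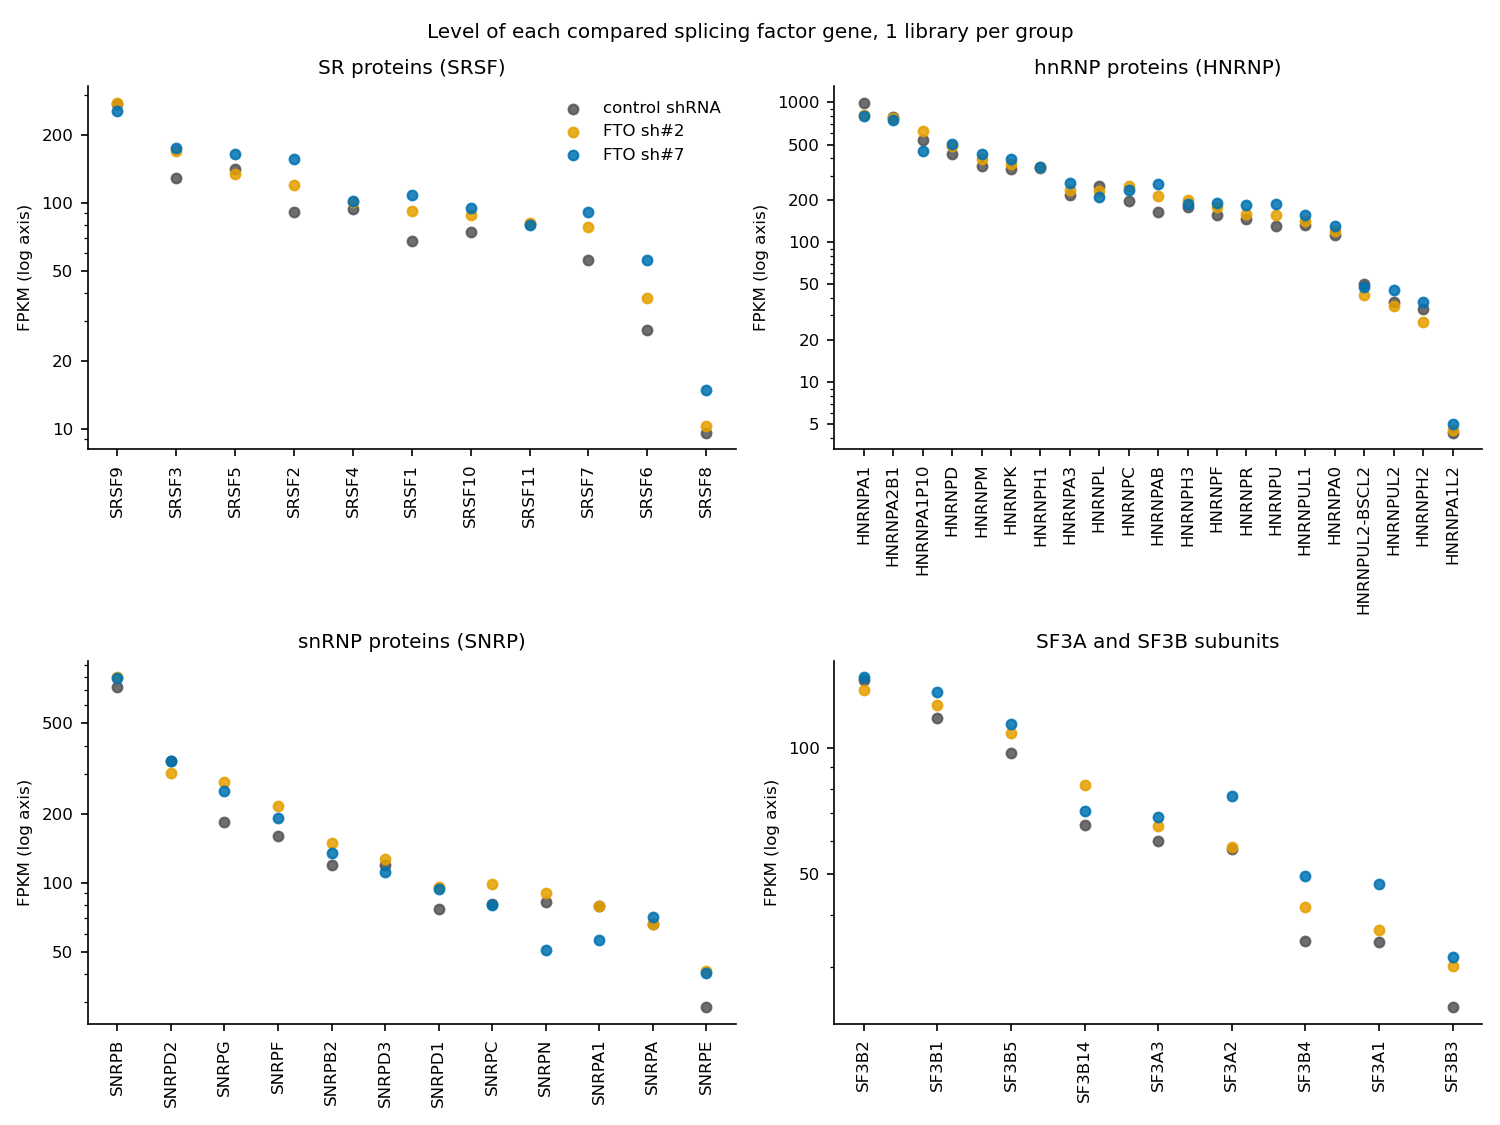
FPKM of every compared member (log axis) in the control, sh#2 and sh#7 libraries, 1 point per library, grouped by family. The members span from HNRNPA1L2 at 4.36 FPKM to HNRNPA1 at 999 FPKM in the control, and for most genes the 3 libraries lie close together on this scale.

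The 58 members together took 1.66% of the summed FPKM of control cells, 1.80% of that of sh#2 and 1.90% of that of sh#7. The hnRNP rows made up more than all other members combined, with summed levels of 5597 FPKM (control), 5809 (sh#2) and 5818 (sh#7). The snRNP rows summed to 2065, 2342 and 2221 FPKM, the SR rows to 1043, 1191 and 1296 FPKM, and the SF3 rows to 637, 687 and 743 FPKM. The ratio of these sums in sh#7 to the control was 1.24 for SR, 1.17 for SF3, 1.08 for snRNP and 1.04 for hnRNP rows, and in sh#2 it was 1.14, 1.08, 1.13 and 1.04. SR transcripts thus had the highest ratio of the families in both lines.

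The SR family had the highest family median in both knockdown lines, at 0.44 in sh#7 and 0.26 in sh#2 (0.29 and 0.15 relative to the median gene), and 8 of its 11 compared members in sh#7 and 6 of 11 in sh#2 were above the median gene. Its 4 members past 1.5-fold higher in sh#7 (36.4% of the family beside 9.61% of all genes) were SRSF6, SRSF2, SRSF7 and SRSF1, and each of them was intermediate in sh#2. With median-of-ratios or upper-quartile factors the 4 became 2 of the 11, beside 5.24% and 6.22% of all genes. The relative median of the family in sh#7 was also 0.27 to 0.29 with both other scalings, a pseudocount of 0.1 and a minimum mean of 5 FPKM, and 0.39 with no minimum.

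SRSF6, an SR protein that binds exonic enhancers, stood at 27.5 FPKM in control cells, 37.8 in sh#2 and 55.8 in sh#7. The difference in sh#7 was 1.00, just short of 2-fold on the log2(FPKM + 1) scale, and that in sh#2 was 0.45, both higher than the control. The plain ratio of sh#7 to control was 2.03, with a 95% exact (Clopper-Pearson) interval of 1.97 to 2.10 that comes from estimated fragment numbers and covers counting error only. SRSF2, which binds exonic enhancers and takes part in pause release of RNA polymerase II, stood at 91.4, 119 and 156 FPKM in control, sh#2 and sh#7 cells. Its differences were 0.38 in sh#2 and 0.76 in sh#7. SRSF6 and SRSF2 were the only members past 1.5-fold higher in sh#7 under all settings tried.

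SRSF7, an SR protein with a zinc knuckle that also takes part in mRNA export, stood at 55.9, 78.0 and 91.1 FPKM in control, sh#2 and sh#7 cells, with differences of 0.47 in sh#2 and 0.70 in sh#7. SRSF1, the founding SR protein and a regulator of 5′ splice site choice, stood at 68.1, 92.0 and 108 FPKM, with differences of 0.43 and 0.66. Both were higher in sh#7 than in sh#2 and higher in sh#2 than in the control. With median-of-ratios factors SRSF7 was at 0.52 and SRSF1 at 0.48 in sh#7, and with upper-quartile factors at 0.57 and 0.53, all under 1.5-fold. SRSF8, the product of a retrogene related to SRSF2, stood at 9.62, 10.3 and 14.9 FPKM, and its difference of 0.58 in sh#7 lay just under 1.5-fold, and past it with a pseudocount of 0.1. Its plain ratio of sh#7 to control was 1.55.

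Of the SR members linked to m6A readers, SRSF3 stood at 128, 169 and 174 FPKM in control, sh#2 and sh#7 cells and SRSF10 at 74.1, 88.7 and 94.4 FPKM. SRSF3, which promotes exon inclusion and mRNA export, was higher by 0.40 in sh#2 and 0.44 in sh#7, nearly the same in the 2 lines. SRSF10, which represses splicing when dephosphorylated, was higher by 0.26 and 0.34. The remaining SR members were nearer to the control. SRSF4 stood at 94.2, 101 and 102 FPKM, SRSF5 at 141, 135 and 165 FPKM, and SRSF11 at 80.5, 81.5 and 79.5 FPKM. SRSF9, the most abundant SR transcript per length, stood at 272, 278 and 255 FPKM, with differences of 0.03 in sh#2 and -0.09 in sh#7. SRSF9, SRSF11 and, by a small margin, SRSF4 were below the median gene in both lines, so the family did not move as a block. Relative to that gene SRSF4 was at -0.005 in sh#2 and -0.05 in sh#7. SRSF12 was not compared, at 0.730, 0.853 and 0.673 FPKM, just outside the minimum, while the lowest member inside it was HNRNPA1L2.

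**Figure D2:**
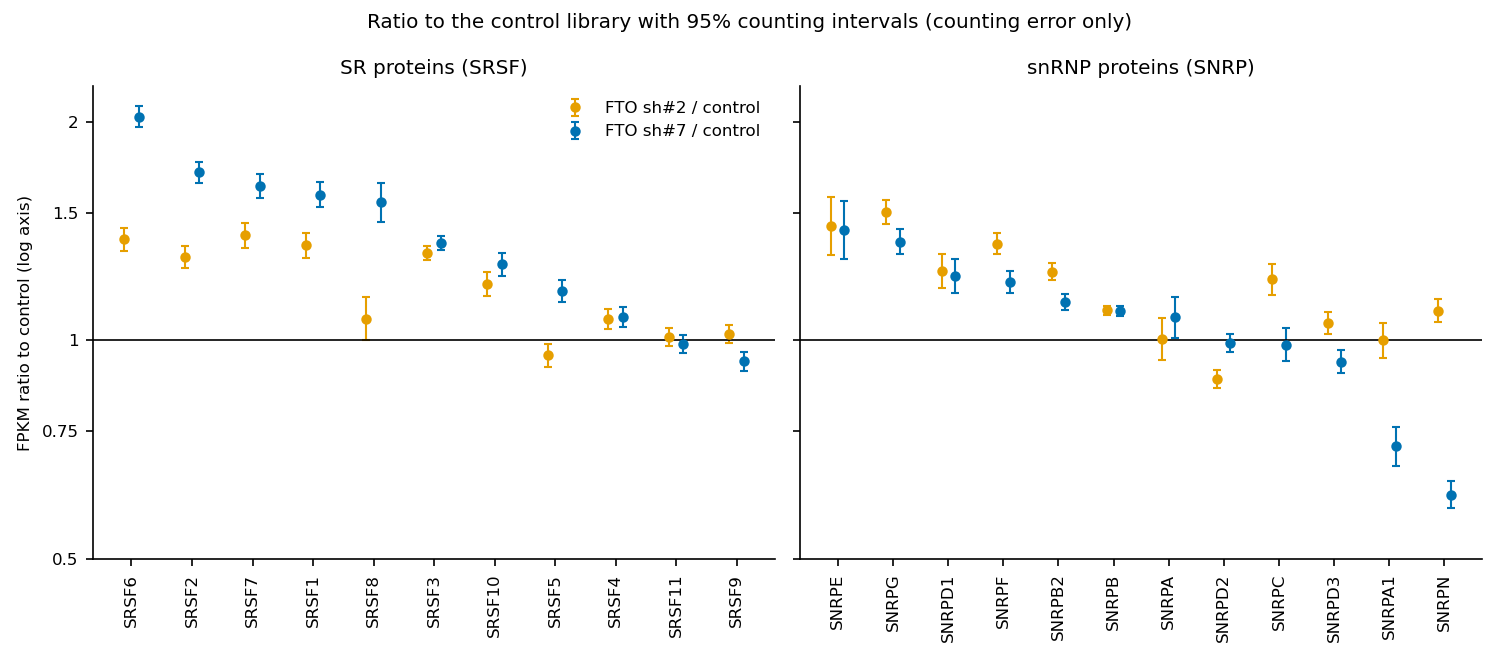
Ratio of FPKM in sh#2 and in sh#7 to the control for the compared SR and snRNP members, with exact (Clopper-Pearson) 95% intervals that cover counting error of estimated fragments only. SRSF6 has the highest ratio in sh#7, at 2.03, and SRSF1, SRSF2, SRSF6 and SRSF7 have higher ratios in sh#7 than in sh#2, whereas SNRPN (0.613) and SNRPA1 (0.715) lie below the control in sh#7 only.

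The proximal promoters of the members were read from RefSeq (GRCh38.p14), 250 bases upstream of each gene's most upstream start, and searched on both strands for 8 letter strings. They were the TATA letters TATAAA, the CCAAT box as CCAAT, the GC box as GGGCGG, the E-box as CACGTG, the CRE half-site as TGACG, the ETS core as CCGGAAG, an E2F site as GCGGGAA, and the NRF1 core as GCATGCGC. Of 53 protein-coding member rows 49 had an entry (not HNRNPA1, SF3B3, SNRPD1 and SRSF2), and 47 of these were compared genes. Promoters of 2 SR members are shown because the family stood highest, the first for its highest member and the second for an m6A-linked member near the same level in both lines. Each runs 5′ to 3′ on the gene's strand, with the matched letters, or their complement on the other strand, in capitals.
SRSF6: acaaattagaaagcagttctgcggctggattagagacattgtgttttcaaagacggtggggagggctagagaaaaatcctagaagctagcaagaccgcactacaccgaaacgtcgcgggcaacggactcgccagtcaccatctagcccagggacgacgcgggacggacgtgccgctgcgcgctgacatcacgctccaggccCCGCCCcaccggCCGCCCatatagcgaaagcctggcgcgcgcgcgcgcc
SRSF3: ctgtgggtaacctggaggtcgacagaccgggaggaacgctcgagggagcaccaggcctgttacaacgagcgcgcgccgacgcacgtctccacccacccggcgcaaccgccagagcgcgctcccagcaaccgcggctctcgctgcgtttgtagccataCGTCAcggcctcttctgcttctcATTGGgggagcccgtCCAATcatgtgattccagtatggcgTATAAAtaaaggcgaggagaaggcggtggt
The SRSF6 window is chr20:43457646-43457895 on the plus strand, and its capitals mark the GC box, read on the other strand, 49 and 37 bases upstream of the start. The SRSF3 window is chr6:36594112-36594361 on the plus strand. Its capitals mark the TATA letters 30 bases upstream, CCAAT on either strand 55 and 70 bases upstream, and the TGACG letters 93 bases upstream. Its last 9 bases overlap an annotated exon of SRSF3. The GC box letters were in 3 of 10 SR promoters (30.0%), against 68.7% of the promoters of all compared genes and 42.2% of all 27305 RefSeq promoters. The CCAAT letters were in 2 of 10 SR promoters, against 36.0% and 33.0%. A match describes letters in a window and is no binding site. For 40 of the members' windows an alternative start places bases in an exon of the same gene, from 1 base in HNRNPK to all 250. The windows of HNRNPA2B1, HNRNPH3, SF3A2, SF3A3, SF3B2, SF3B4, SNRPA, SRSF5 and SRSF10 lie wholly in such an exon. They were kept in the shares given here.

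The hnRNP family lay near the median gene, with a median of 0.23 in sh#7 and 0.11 in sh#2 (0.08 and 0.01 relative to it), and 14 of its 21 compared members in sh#7 and 11 of 21 in sh#2 were above the median gene. The relative median in sh#2 turned to -0.01 with both other scalings, so it has no set direction. HNRNPAB was its 1 member past 1.5-fold higher, in sh#7 (4.76% of the family beside 9.61% of all genes), and none was past 1.5-fold lower (6.18% of all genes). None was past 1.5-fold in sh#2 (2.67% of all genes higher and 2.72% lower) or between the lines (5.14% and 4.55%). The highest transcripts of the family, HNRNPA1 and HNRNPA2B1, were among those below the median gene in both lines.

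HNRNPAB, an hnRNP that binds single-stranded RNA and DNA, stood at 165 FPKM in control cells, 214 in sh#2 and 261 in sh#7. Its differences were 0.37 in sh#2 and 0.66 in sh#7, and with median-of-ratios factors the latter was 0.48. HNRNPU, the nuclear scaffold hnRNP, stood at 132, 157 and 187 FPKM, with differences of 0.25 and 0.50. Both followed the same order over the libraries as the 4 leading SR genes. HNRNPR (148, 161 and 184 FPKM), HNRNPF (156, 179 and 192 FPKM), HNRNPM (351, 392 and 430 FPKM), HNRNPK (336, 366 and 397 FPKM) and HNRNPD (428, 491 and 504 FPKM) also had their lowest level in the control and their highest in sh#7, with differences in sh#7 of 0.23 to 0.32 (0.08 to 0.16 relative to the median gene). So did HNRNPA0 (114, 121 and 130 FPKM), HNRNPA3 (219, 237 and 267 FPKM) and HNRNPUL1 (132, 142 and 156 FPKM). HNRNPH3 (178, 201 and 188 FPKM) was instead highest in sh#2. With median-of-ratios factors HNRNPD was at 0.08 in sh#2 and 0.06 in sh#7. HNRNPK and HNRNPR were then close to the control in sh#2, and HNRNPA0, HNRNPA3 and HNRNPUL1 slightly below it.

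HNRNPA1, a repressor of exons and the most abundant member per length, stood at 999 FPKM in control cells, 812 in sh#2 and 797 in sh#7, lower by 0.30 and 0.33. HNRNPA1P10, a pseudogene row of nearly the same sequence, stood at 539.8, 627 and 446 FPKM, so the levels of these 2 rows are uncertain where reads could be split between them. Their sum with HNRNPA1L2 (4.36, 4.53 and 5.02 FPKM) was 1543, 1443 and 1248 FPKM, a ratio to the control of 0.935 in sh#2 and 0.809 in sh#7. This sum still depends in part on the split, because FPKM is per length and these 3 rows differ in length. The lengths used to estimate fragments, medians over annotated transcripts, were 832 bases for HNRNPA1, 962 for HNRNPA1P10 and 1372 for HNRNPA1L2. The lengths behind the FPKM values are not given. The HNRNPA1 row held 64.7% of the sum in control cells, 56.2% in sh#2 and 63.9% in sh#7. The summed HNRNPA1-like level was thus lower in sh#7 than in sh#2, whereas the HNRNPA1 row alone was nearly the same in both.

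HNRNPA2B1, an RNA-sorting hnRNP that has been described as an m6A reader, stood at 786, 771 and 749 FPKM in control, sh#2 and sh#7 cells, differences of -0.03 and -0.07. HNRNPC, which binds U tracts that m6A can expose, stood at 196, 252 and 238 FPKM and was higher by 0.36 in sh#2 and 0.28 in sh#7. The 5 m6A-linked members therefore did not move together: SRSF2 was past 1.5-fold higher in sh#7, SRSF3, SRSF10 and HNRNPC were higher within 1.5-fold in both lines, and HNRNPA2B1 differed from the control by at most 0.07, lower. With median-of-ratios factors HNRNPA2B1 was at -0.15 in sh#2 and -0.25 in sh#7, and SRSF3, SRSF10, HNRNPC and SRSF2 stayed above the control in both lines.

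HNRNPL, a CA-repeat binding regulator, stood at 251 FPKM in control cells, 234 in sh#2 and 211 in sh#7, lower by 0.11 and 0.25. HNRNPH1 was the hnRNP closest to the control, at 341, 346 and 345 FPKM. Its relative HNRNPH2 stood at 33.5, 26.7 and 37.5 FPKM, below the control in sh#2 (-0.31) and above it in sh#7 (0.16, or -0.01 with median-of-ratios factors). The readthrough row RPL36A-HNRNPH2, which shares exons with HNRNPH2, was at 27.6, 28.1 and 23.3 FPKM, so reads could be divided between these rows too. HNRNPUL2 (37.2, 35.3 and 45.3 FPKM) shares exons with the readthrough row HNRNPUL2-BSCL2 (50.1, 42.2 and 47.6 FPKM) in the same way. Both of these rows were at their lowest in sh#2. Another 4 rows of the rule were not compared, all of them pseudogene or near-silent rows: HNRNPA3P1, HNRNPCL1 and HNRNPKP3 in this family and SNRPD2P2 among the snRNPs.

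The promoter of HNRNPL is shown as that of a member with its highest level in the control, and because it holds the CCAAT letters that were in 12 of 18 hnRNP promoters (66.7%), against 36.0% of the promoters of all compared genes and 33.0% of all RefSeq promoters.
HNRNPL: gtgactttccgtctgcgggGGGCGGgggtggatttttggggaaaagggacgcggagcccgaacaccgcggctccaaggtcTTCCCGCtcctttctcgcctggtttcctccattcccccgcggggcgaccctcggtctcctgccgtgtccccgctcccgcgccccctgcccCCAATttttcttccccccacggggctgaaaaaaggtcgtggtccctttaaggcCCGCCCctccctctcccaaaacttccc
The window is chr19:38852348-38852597 on the minus strand (GRCh38.p14). The capitals mark CCAAT 80 bases upstream of the start, the GCGGGAA letters on the other strand 170 bases upstream, and the GC box 231 bases upstream and, on the other strand, 27 bases upstream. The CACGTG letters were in 27.8% of hnRNP promoters and in 9.25% of those of all compared genes.

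The snRNP family was the only one with a lower median in sh#7 than in sh#2. Its median was 0.12 in sh#7 and 0.21 in sh#2 (-0.04 and 0.10 relative to the median gene, the former turning to 0.10 with no minimum on FPKM), and sh#7 minus sh#2 had a median of -0.14, with 10 of its 12 members below the median gene of that comparison. In this comparison the SR, hnRNP and SF3 medians were 0.22, 0.12 and 0.10. The only snRNP members past 1.5-fold were SNRPG, higher in sh#2, and SNRPN, lower in sh#7. SNRPG was 8.33% of the family, beside 2.67% of all genes. SNRPN was also 8.33%, beside 6.18% of all genes lower in sh#7 than in the control and 4.55% lower than in sh#2.

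**Figure D3:**
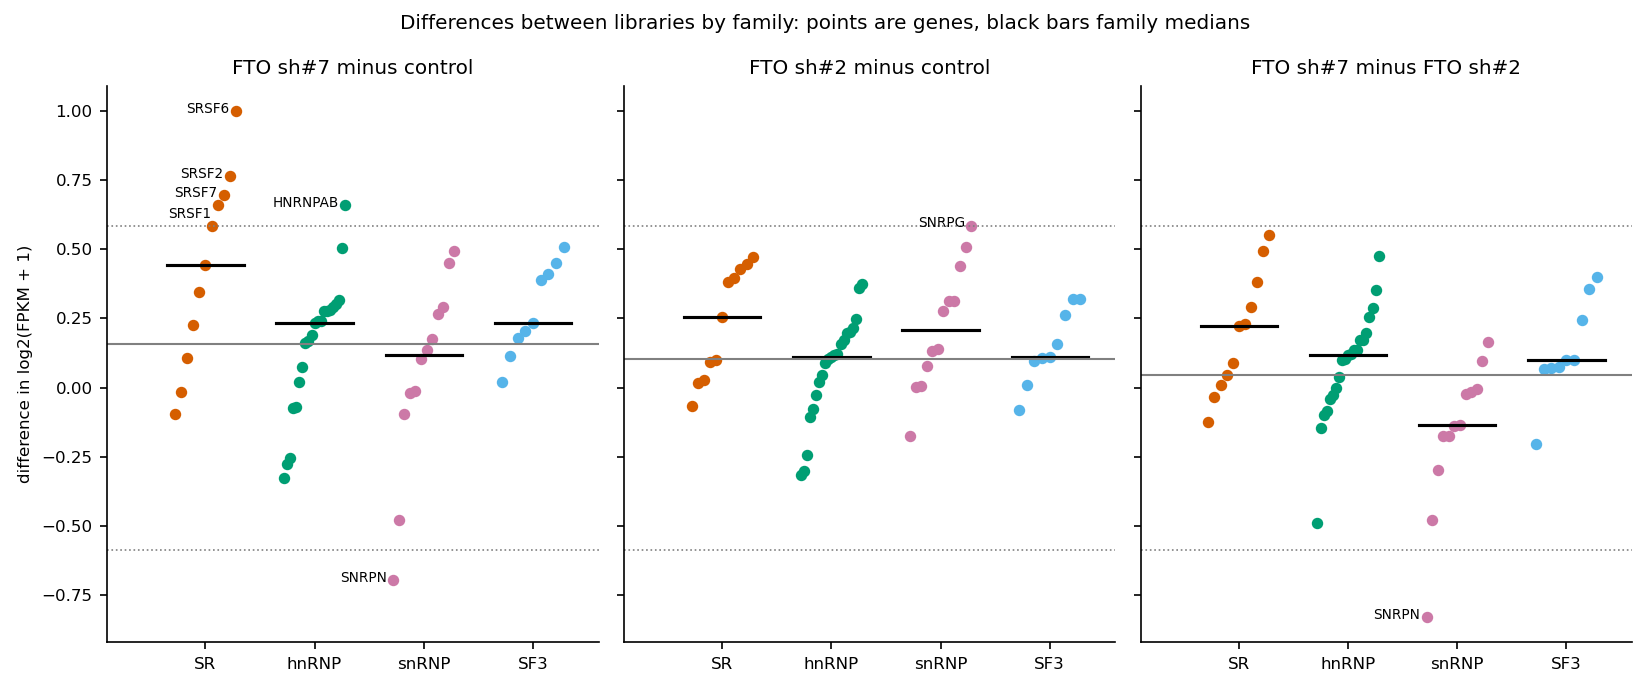
Differences in log2(FPKM + 1) for the compared members by family, in sh#7 minus control, sh#2 minus control and sh#7 minus sh#2, with a point per gene, black bars at the family medians, the grey line at the median of all compared genes and dotted lines at 1.5-fold. The SR points reach highest in sh#7 minus control (median 0.44), and the snRNP median is the only one below 0 in sh#7 minus sh#2 (-0.14).

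Of the 7 Sm ring genes, SNRPE, SNRPF, SNRPG and SNRPD1 were above the median gene in both lines. SNRPG (Sm G) stood at 184 FPKM in control cells, 277 in sh#2 and 252 in sh#7, higher by 0.59 and 0.45, and its sh#2 ratio was 1.503 with a counting interval of 1.45 to 1.56. With median-of-ratios factors it was at 0.47 in sh#2, under 1.5-fold. SNRPE (Sm E) stood at 28.5, 41.0 and 40.5 FPKM, SNRPF (Sm F) at 160.0, 218 and 193 FPKM, and SNRPD1 (Sm D1) at 77.0, 95.9 and 94.4 FPKM. SNRPE, SNRPF and SNRPG, which form a trimer during ring assembly, were each at their highest in sh#2, as was SNRPD1, but for SNRPE and SNRPD1 the 2 lines were within counting error of each other. SNRPD2 (Sm D2, 343, 304 and 341 FPKM), the partner of SNRPD1, had differences of -0.18 in sh#2 and -0.01 in sh#7. SNRPD3 (Sm D3) stood at 120.1, 127 and 112 FPKM. The ring contains 1 copy of each, but the highest of the 7 transcripts per length, SNRPB, was 25.3 times the lowest, SNRPE, in the control, 19.4 times in sh#2 and 19.6 times in sh#7.

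SNRPB, which encodes Sm B and B′, stood at 722, 795 and 793 FPKM in control, sh#2 and sh#7 cells. SNRPN, which encodes the closely related SmN and is imprinted, stood at 82.7, 90.9 and 50.7 FPKM, higher by 0.13 in sh#2 and lower by 0.69 in sh#7. It was the only member past 1.5-fold lower in sh#7 than in the control, and the only one past 1.5-fold lower in sh#7 than in sh#2 (-0.83). Its share of the SNRPN and SNRPB sum was 10.3% in the control and in sh#2 and 6.01% in sh#7. SNURF, whose reading frame lies upstream on the same transcripts and whose exons overlap those of SNRPN, stood at 142, 143 and 90.9 FPKM, so reads of the 2 rows may be shared and they are not separate observations. SNRPN was past 1.5-fold lower in sh#7 under all settings tried, while its sh#2 difference was 0.02 with median-of-ratios factors.

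Among the 4 proteins specific to U1 or U2, SNRPA1 (the A′ protein of the U2 snRNP) stood at 79.2 FPKM in control cells, 79.2 in sh#2 and 56.6 in sh#7. It was lower by 0.48 in sh#7 and its ratio there was 0.715 (counting interval 0.672 to 0.760), and with median-of-ratios factors it was at -0.65, past 1.5-fold lower. Its partner in the U2 snRNP, SNRPB2 (the B″ protein), stood at 120.1, 149 and 136 FPKM, at 0.31 in sh#2 and 0.17 in sh#7, and the latter was near 0 with median-of-ratios factors. Of these partners SNRPA1 alone was lower in sh#7 as deposited. SNRPC (the C protein of U1), which helps the U1 snRNP to bind the 5′ splice site, stood at 81.3, 98.8 and 80.3 FPKM, and SNRPA (the A protein of U1) at 66.1, 66.4 and 71.1 FPKM. The CCGGAAG letters were in 7 of 11 snRNP promoters (63.6%), against 17.0% of the promoters of all compared genes and 8.78% of all RefSeq promoters.

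The SF3 family lay near the median gene, with a median of 0.23 in sh#7 and 0.11 in sh#2 (0.07 and 0.01 relative to it, the latter turning slightly negative with other scalings), and none of its 9 members was past 1.5-fold in any comparison. All 9 were at or above the control in sh#7 as deposited, from 0.02 for SF3B2 to 0.51 for SF3B4, though SF3B2 and SF3B14 were below it with median-of-ratios factors, and 7 of 9 were above the median gene. The 3 SF3A subunits had a median of 0.41 in sh#7 and 0.09 in sh#2, and the 6 SF3B subunits one of 0.22 and 0.21. SF3A1, a U2 snRNP protein that also contacts U1, stood at 34.4, 36.8 and 47.4 FPKM in control, sh#2 and sh#7 cells, and SF3A2, which holds the branch region, at 57.6, 58.0 and 76.9 FPKM. Both were near the control in sh#2 and higher in sh#7 only, whereas SF3A3 (60.1, 65.0 and 68.3 FPKM) differed little between the lines.

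SF3B1, the branch point clamp that is often mutated in myeloid neoplasms, stood at 118 FPKM in control cells, 127 in sh#2 and 136 in sh#7, differences of 0.11 and 0.20. SF3B2, the most abundant SF3 transcript per length, stood at 146, 138 and 148 FPKM. SF3B4, an RNA-binding subunit upstream of the branch point, stood at 34.6, 41.7 and 49.5 FPKM, and SF3B3, a scaffold of the complex, at 24.0, 30.2 and 31.7 FPKM, differences in sh#7 of 0.51 and 0.39. SF3B5, a small structural subunit, stood at 97.3, 109 and 114 FPKM. SF3B14, an older symbol of SF3B6, which contacts the branch point adenosine, stood at 65.4, 81.8 and 70.9 FPKM and was the only SF3 member lower in sh#7 than in sh#2.

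The promoter of SF3B1 is shown for its E-box, the only match in this window, since 6 of 8 SF3 promoters held the CCGGAAG letters and that of SF3B1 did not.
SF3B1: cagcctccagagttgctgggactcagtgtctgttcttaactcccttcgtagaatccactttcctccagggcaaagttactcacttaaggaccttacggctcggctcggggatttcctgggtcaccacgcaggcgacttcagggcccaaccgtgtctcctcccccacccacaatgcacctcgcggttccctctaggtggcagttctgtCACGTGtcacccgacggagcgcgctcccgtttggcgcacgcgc
The window is chr2:197435094-197435343 on the minus strand (GRCh38.p14), and the capitals mark CACGTG 43 bases upstream of the start. The CCAAT letters were in 12.5% of SF3 promoters, against 36.0% of the promoters of all compared genes and 33.0% of all RefSeq promoters.

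The rest of the splicing machinery was described from 9 other lists with 137 genes, of which 129 were compared. Of these, 10 were past 1.5-fold higher in sh#7 (7.75% beside 9.61% of all compared genes) and none was past 1.5-fold lower (6.18% of all genes). In sh#2, 3 were past 1.5-fold higher (2.33% beside 2.67%) and none lower (2.72% of all genes). Their median was 0.21 in sh#7 and 0.20 in sh#2 (0.05 and 0.09 relative to the median gene), beside 0.23 and 0.12 for the 53 members. Tra2 and SR-related proteins had the highest list median in sh#7, at 0.42, with 0.23 in sh#2, close to that of the SR family. Of its 10 genes, 2 were past 1.5-fold higher in sh#7 (20% beside 9.61% of all compared genes): SRRM2, a nuclear speckle scaffold, at 29.9, 39.4 and 51.1 FPKM, and SON, another speckle scaffold, at 18.4, 24.5 and 28.2 FPKM. The kinases of SR proteins, with 8 compared genes, had medians of 0.05 and 0.04, below the median gene in both lines.

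**Figure D4:**
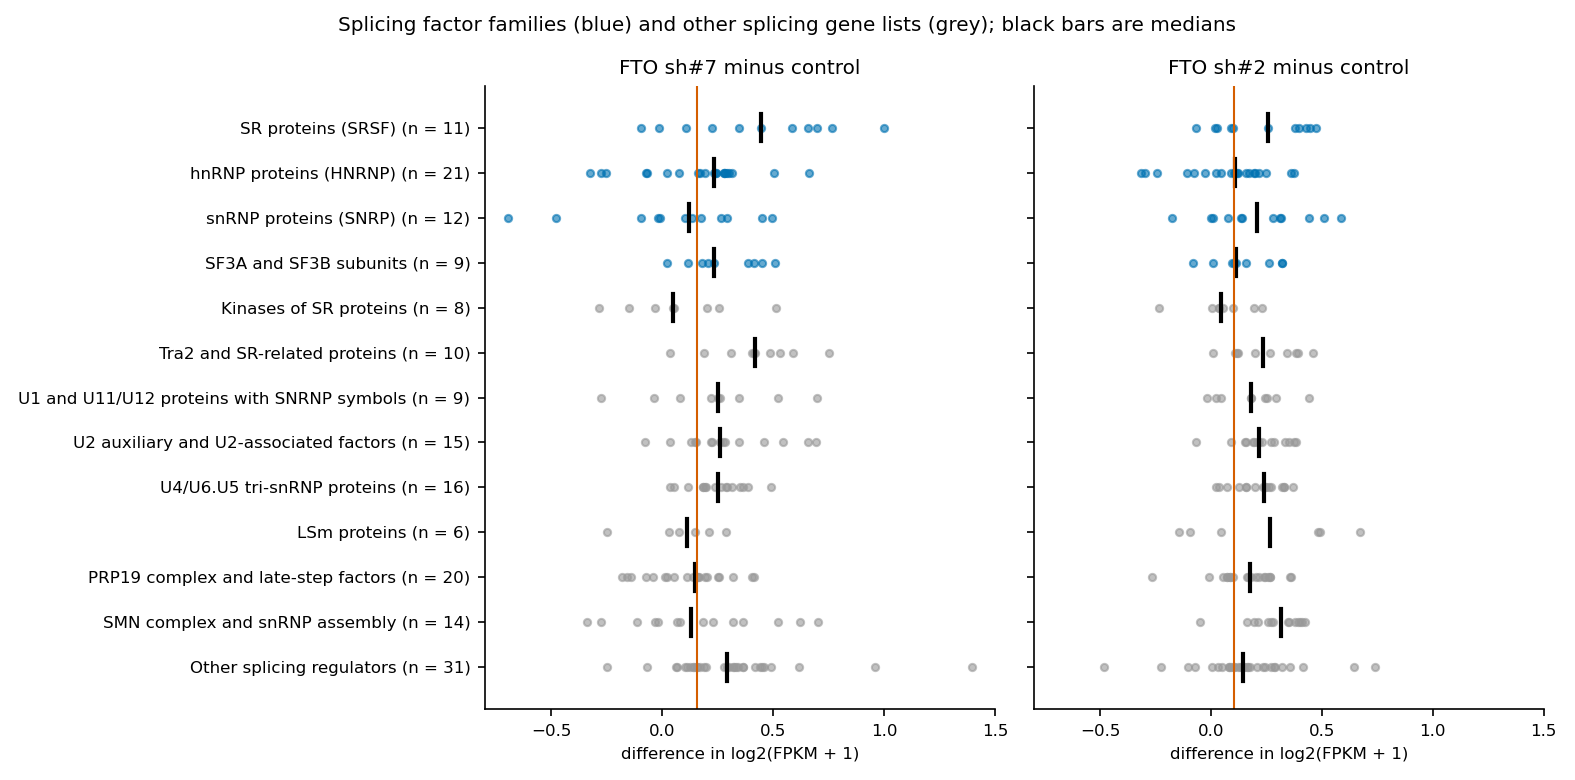
Median difference in log2(FPKM + 1) against the control in sh#2 and sh#7 for the 4 families (blue) and the 9 other splicing lists (grey), with the orange line at the median of all compared genes. SR proteins (0.44) and Tra2 and SR-related proteins (0.42) are highest in sh#7, and the kinases of SR proteins (0.05) are lowest.

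LUC7L3, SF1 and MBNL3 of these lists followed the order seen for SRSF6. The median gene had this order too, at 0.10 in sh#2 and 0.16 in sh#7. How many of the 129 genes had it was not counted. LUC7L3, a U1-associated protein, stood at 92.6, 126 and 151 FPKM in control, sh#2 and sh#7 cells, and SF1, the branch point binding protein, at 75.1, 98.2 and 119 FPKM. MBNL3, an alternative splicing regulator, stood at 19.3, 32.9 and 52.4 FPKM and was past 1.5-fold higher in both lines, by 0.74 in sh#2 and 1.40 in sh#7. It was the only one of the 129 past 2-fold against the control. RBM47 stood at 3.49, 2.84 and 7.73 FPKM, below the control in sh#2 (-0.22) and above it in sh#7 (0.96).

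Of the 9 lists, those of the SMN complex, the LSm proteins and the PRP19 complex had higher medians in sh#2 than in sh#7. The SMN complex list (14 compared genes) had a median of 0.31 in sh#2 and 0.13 in sh#7, and the LSm list (6 compared genes), whose proteins form the ring of the U6 snRNP, one of 0.26 and 0.11. GEMIN2, which holds the Sm ring intermediate, stood at 28.5, 37.8 and 23.4 FPKM, and was past 1.5-fold lower in sh#7 than in sh#2 (-0.67). It was 7.14% of its list, beside 4.55% of all genes. LSM6 stood at 63.8, 102 and 67.2 FPKM, past 1.5-fold higher in sh#2 (0.67) and past 1.5-fold lower in sh#7 than in sh#2 (-0.60). It was 16.7% of its list, beside 2.67% of all genes higher in sh#2 and 4.55% lower in sh#7 than in sh#2. In contrast DDX20 and GEMIN4, also of the SMN complex, were past 1.5-fold higher in sh#7, by 0.70 and 0.62. They were 14.3% of that list, beside 9.61% of all genes. The PRP19 complex and late-step list (20 compared genes) had medians of 0.17 in sh#2 and 0.15 in sh#7, and the lists not yet described had medians between 0.25 and 0.29 in sh#7.

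Exons of 13 of the 53 compared members share bases with a coding gene on the opposite strand in GENCODE 29, and the sources used here do not say whether counting used strand. For SRSF2 this gene is MFSD11, at 5.27, 6.35 and 7.00 FPKM, far below SRSF2 in all 3 libraries. For HNRNPAB it is PHYKPL and for HNRNPU it is COX20. Neither has a row under that symbol, so their levels are not known here. For HNRNPA2B1 it is CBX3, at 176, 198 and 173 FPKM, and for SF3A2 it is PLEKHJ1, at 77.7, 76.9 and 94.5 FPKM. PLEKHJ1 was, like SF3A2, highest in sh#7. On the same strand, 8 of the compared members share exon bases with a coding gene, SRSF1 among them (with AC015813.2). The part of these overlaps in the differences was not tested.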

How the data were processed

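RNA of 3 Hep-G2 libraries, 1 per group, had been sequenced. The authors deposited 1 table of FPKM values with 21572 gene rows and 1 column per library. The tools named in the submitters' processing notes are Cufflinks 2.2.1, STAR 2.4.0j and HTSeq, and the build is hg19; the annotation and the role of each tool are not given in the sources used. Columns were matched to libraries by sample title.

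Differences of log2(FPKM + 1) were computed for genes whose mean reached 1 FPKM, and understate changes of low genes. Past 1.5-fold and 2-fold are sizes on that scale. With 1 library per group there was no test. Depth was estimated from the steps of low values and GENCODE 29 transcript lengths, newer than the authors' build. Fragments were estimated with the median length of a gene's annotated transcripts, short ones included, such as 723 bases for SF3B1. The 95% exact (Clopper-Pearson) intervals are therefore approximate and cover counting error only. The lowest compared member had an estimated 256 fragments. Promoters came from RefSeq (GRCh38.p14).

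The members and lists were chosen with earlier results of these data known. Named were FTO, members past 1.5-fold in any comparison, each family's most abundant member and the 3 highest and 3 lowest by the mean difference of the lines, m6A-linked members, SNRPB, SNRPN, SF3B1, members on opposite sides of the control, pseudogene or readthrough rows, and genes of the other splicing lists past 1.5-fold (the 2 largest in each direction and comparison). Other members are given to complete their family. SRRM2, SON, LUC7L3, SF1, DDX20 and GEMIN4 of the other splicing lists are not among those 2 largest. They were picked outside the rule from the genes past 1.5-fold higher in sh#7. PCBP1 and U2AF1L4 were also past 1.5-fold higher there and are not described. Overlapping genes (SNURF, MFSD11, CBX3, PLEKHJ1, RPL36A-HNRNPH2) and HNRNPA0, HNRNPA3, HNRNPD, HNRNPF, HNRNPH3, HNRNPK, HNRNPM, HNRNPR and HNRNPUL1 were added after their values were seen. Alternatives were a pseudocount of 0.1, a minimum of 5 FPKM or none, median-of-ratios and upper-quartile scaling, and coding rows only. Python 3.11.15, pandas 2.3.3, numpy 2.4.6 and scipy 1.17.1 were used, and the calculations were tested on simulated data.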

Additional observations from a re-analysis of the deposited data

Results flagged for a closer look

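In 6 of the 53 compared members the 2 knockdown lines lay on opposite sides of the control, each by more than its counting interval. That interval covers counting error only. The share of all compared genes that meet this rule was not computed, so whether 6 of 53 is unusual is not known. This difference between the lines was not tested, as each line is 1 library. SNRPN was 0.13 above the control in sh#2 and 0.69 below it in sh#7 on the log2(FPKM + 1) scale, with sh#7 minus sh#2 at -0.83. HNRNPA1P10 was at 0.22 in sh#2 and -0.27 in sh#7, with sh#7 minus sh#2 at -0.49. SNRPD3 was at 0.08 and -0.10, with sh#7 minus sh#2 at -0.17. HNRNPH2 was at -0.31 in sh#2 and 0.16 in sh#7, with sh#7 minus sh#2 at 0.48. HNRNPUL2 was at -0.08 and 0.28, with sh#7 minus sh#2 at 0.35. SRSF5 was at -0.07 and 0.23, with sh#7 minus sh#2 at 0.29. Of these, HNRNPA1P10, HNRNPH2, HNRNPUL2, SNRPN and SNRPD3 share sequence or exons with other rows of the table, SNRPD3 with GGT1 (27.4, 14.0 and 15.2 FPKM in control, sh#2 and sh#7 cells). With median-of-ratios factors SNRPD3 was below the control in both lines (-0.04 and -0.27), and so was HNRNPH2 (-0.43 and -0.01), while the other 4 stayed on opposite sides, SNRPN at 0.02 in sh#2. Relative to the median gene, SNRPD3 was likewise negative in both lines (-0.02 in sh#2 and -0.25 in sh#7). On that scale HNRNPH2 was at 0.003 in sh#7 and SNRPN at 0.03 in sh#2.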

How the results depend on the processing

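Of the recomputed values that answer a comparison, 95 stayed close to the reported value and 10 moved. Nearly all of these are counts and medians, for which a change of direction was not scored apart from a move. A count that stayed at 0 was scored as close. Of the other recomputed values 552 stayed close and 171 moved, 87 of them differences of single genes with median-of-ratios and 68 with upper-quartile factors. With median-of-ratios and with upper-quartile scaling alike, the members past 1.5-fold in sh#7 against control became 2 higher (SRSF2, SRSF6) and 2 lower (SNRPA1, SNRPN), and those past 1.5-fold higher in sh#2 became 0; each scaling lowers all differences against the control. Among all genes the higher and lower counts became 688 and 880 in sh#7 with upper-quartile factors, 169 and 447 in sh#2 with median-of-ratios and 190 and 408 with upper-quartile factors, beside 295 and 301 as deposited. With a pseudocount of 0.1, 1 member (SRSF6) was past 2-fold higher in sh#7, and FTO was at -1.78. With no minimum, which adds genes at or near 0 to the median gene, the members' median relative to it was 0.20 in sh#7 and 0.11 in sh#2, against 0.07 and 0.02. A minimum of 5 FPKM or coding rows only moved none of these values. No paired analysis was possible because no group has a second library, and for that reason no library could be left out.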
